A study of Mus musculus with 4 samples.

Results

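The RNA recovered with IgG, an antibody against no chosen protein, was compared between 4T1 cells with an shRNA against CerS4 (shCerS4) and 4T1 cells with the control shRNA SCR (shSCR). The comparison rested on 2 of the 4 libraries of the study, taken by their labels alone, with 1 library on each side. The other 2 libraries were Caprin-1 precipitates of the same cell lines and were used only for setting ratios side by side. 4T1 is a mouse mammary carcinoma line, and both lines expressed their shRNA stably in medium with 10% FBS and 4 ug/mL puromycin. Whether either line was 1 clone or a pool, and whether the libraries came from separate cultures, was not given in the sources used here. The study was set up to find which mRNAs Caprin-1, which binds RNA in stress granules, carries together with PD-L1 when lipid metabolism is altered. Libraries were made from polyadenylated RNA, starting from 500 ng of total RNA.

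With 1 library per group there is no replicate check, and no difference below was tested. Values are CPM, read counts scaled to the total of each library. Each ratio is a log2 ratio of shCerS4 IgG over shSCR IgG with 0.5 reads added, and the bracket beside it is an exact 95% interval that covers counting error between these libraries only. Compared were the 10283 of 12967 gene symbols whose mean over all 4 libraries reached 5 CPM. The estimated depth was 19.8 M reads for shSCR IgG and 19.7 M for shCerS4 IgG, so that 3 reads came to 0.151 and 0.152 CPM, and the Caprin-1 libraries held 27.0 M and 24.7 M reads. Rn45s, the 45S ribosomal RNA precursor, took 6697 CPM of the shSCR IgG library and 3074 CPM of the shCerS4 IgG library. Cers4 and the mitochondrially encoded genes were not analysed here, so the knockdown itself has no value.

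Ceramide synthases join an acyl chain to a sphingoid base and so make ceramide, from which sphingomyelin and glycosphingolipids are built. In an immunoprecipitation of RNA-protein complexes, the IgG arm collects RNA that adheres to antibody and beads and serves as the background of the method. Cells that enter the cycle switch on the replication genes through E2F factors and later the mitotic genes through FOXM1 and its partners. SREBP factors drive sterol and fatty acid synthesis, and NF-kappaB drives many chemokine genes.

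All 12 markers of mammary epithelium and carcinoma were measured in both IgG libraries, which sets the label of the cells beside its genes. Their summed level was 6468 CPM in shSCR IgG and 5775 CPM in shCerS4 IgG, with Krt18, a simple epithelial keratin, and Krt8, its partner, as the most abundant. Gene by gene, 9 of the 12 had a log2 ratio above 0 and 3 below, Krt18 and Krt8 among the latter. The median of the 12 was 0.62, so the lower sum does not describe most of these markers. Fibroblast markers summed to 69.3 and 44.4 CPM, nearly all of it from Pdgfra, a receptor of platelet-derived growth factor, while Col1a1, Col1a2 and Col3a1 each lay at or under 5.14 CPM. Leukocyte markers summed to 51.8 and 26.8 CPM, from Cd68, a lysosomal glycoprotein, and Cd14, a receptor for bacterial lipopolysaccharide, with Csf1r at 0.0504 and 0.712 CPM. Endothelial markers summed to 1.37 CPM in shSCR IgG, and both with an entry were at 0 in shCerS4 IgG. Other markers of these lists, Ptprc among them, were not analysed here. In such bulk RNA fewer cells of a type and less RNA per cell cannot be told apart.

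Past 2-fold, 585 genes stood higher and 549 lower in shCerS4 IgG, meaning at least 2-fold with an interval that excluded 0. These were 5.69% and 5.34% of the 10283 genes compared. Counts within each gene list below are to be read beside these shares. The background of the same rule in the Caprin-1 precipitates was 6.25% higher and 4.95% lower. A change of at least 4-fold was reached by 91 higher and 104 lower genes, and of at least 8-fold by 31 and 24. In contrast, 3899 genes (37.9%) lay within 1.2-fold of equal shares. The median over all genes was 0.10, with the 5th and the 95th percentile at −1.04 and 1.04, and intervals reached a median of 0.137 to either side of their ratio. On average over both libraries, 14.7% of the reads lay in shares of the compared genes that the other library did not match. The split depended on the scaling, at 448 higher and 644 lower under trimmed-mean scaling, which brought the median of all genes to 0.01.

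**Figure D1:**
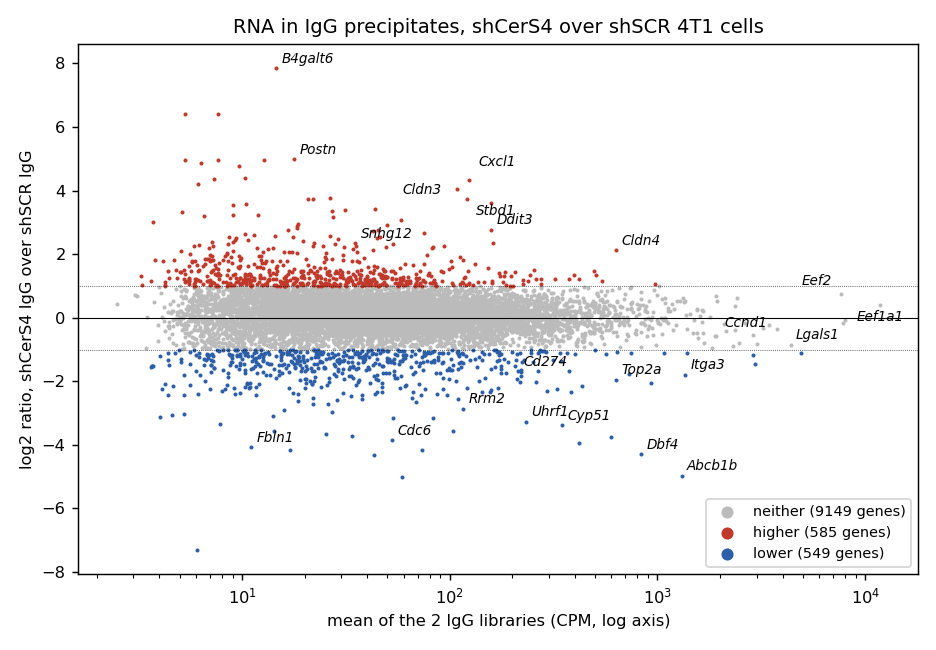
Log2 ratio of shCerS4 IgG over shSCR IgG for each of the 10283 genes against the mean of both IgG libraries in CPM on a log axis. Red points are the 585 higher genes, blue points the 549 lower genes, dotted lines mark 2-fold, and Abcb1b stands at −4.97 and Cxcl1 at 4.32.

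The genes of DNA replication and nucleotide supply formed the list with the lowest median, −1.62 over 47 genes. Of these, 39 were lower past 2-fold and none was higher, against 5.34% of all genes lower, and all 47 had a ratio below 0. Their summed level was 8945 CPM in shSCR IgG and 2371 CPM in shCerS4 IgG. In the Caprin-1 precipitates the list median was −1.55, with 39 lower as well. A shorter list of replication genes had already been seen to be low in these libraries, so the count is a description and no independent support.

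Licensing and firing of origins came first by size. Dbf4, the activating subunit of the CDC7 kinase, stood at 1581 CPM in shSCR IgG and 80.7 CPM in shCerS4 IgG, a log2 ratio of −4.29 [−4.37, −4.22]. It lies within the run of low genes on chromosome 5 described further on. Cdc6, which loads the replicative helicase onto origins, stood at 99.1 CPM in shSCR IgG and 6.86 CPM in shCerS4 IgG, 14.4-fold lower (−3.85 [−4.12, −3.60]). In the Caprin-1 libraries it stood at 94.6 and 9.51 CPM. Both shSCR libraries were therefore high for Cdc6 and both shCerS4 libraries low. The origin recognition subunit gene Orc1 stood at −1.69, whereas Orc6 (−0.59) and Cdt1 (−0.41), a licensing factor, did not reach 2-fold.

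The subunits of the MCM2-7 helicase, which unwinds DNA ahead of the fork, were all lower past 2-fold. Mcm6 stood at 706 CPM in shSCR IgG and 159 CPM in shCerS4 IgG (−2.15 [−2.21, −2.10]), and Mcm3 at 543 and 115 CPM (−2.23). The others ranged from −2.32 for Mcm4 to −1.06 for Mcm7. The helicase partner Cdc45 stood at −2.21, and of the GINS subunits Gins1 (−1.93) and Gins2 (−1.12) were past 2-fold while Gins3 (−0.71) and Gins4 (−0.81) were not. Among polymerase genes, Pold1, the catalytic subunit of polymerase delta, stood at 165 and 30.4 CPM (−2.43 [−2.56, −2.31]). Pold2, its accessory subunit, stood at 113 and 92.7 CPM (−0.29), the value closest to 0 in the list. Pcna, the sliding clamp, stood at 405 and 128 CPM (−1.67), and the ligase gene Lig1 at −2.0.

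Nucleotide supply and chromatin copying showed the same direction. Rrm2, the regulated subunit of ribonucleotide reductase, stood at 204 CPM in shSCR IgG and 28.1 CPM in shCerS4 IgG (−2.86 [−2.99, −2.73]), and Tk1, thymidine kinase, at 262 and 54.2 CPM (−2.28). Uhrf1, which guides DNA methylation to new strands, stood at 423 and 43.6 CPM (−3.28 [−3.38, −3.18]), and at 323 and 42.5 CPM in the Caprin-1 precipitates. Dnmt1, the methyltransferase that it guides, stood at −1.5. Pclaf, a partner of the clamp outside the list, was among the 15 lowest genes whose mean reached 20 CPM, at 95.5 and 10.6 CPM (−3.16).

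Promoters of replication genes often carry the short site to which E2F factors bind. The letters TTTCCCGC, TTTGGCGC, TTTCGCGC and TTTGCCGC were searched on both strands of RefSeq promoters of build GRCm38.p6, each 300 bases from 250 before to 50 after the annotated start. At least 1 match lay in 16 of the 39 replication genes with a promoter entry (41.0%), against 2.26% of all 32851 promoters and 5.27% of the 8292 compared genes with an entry. Among those compared genes, 10.3% with a match and 4.71% without were lower past 2-fold. These shares include the replication list itself, with 12 of its 16 matched genes lower, and so are not independent of it. Within the list the median ratio was −1.95 with a match and −1.56 without. The windows of Cdc6 (chr11:98907978-98908055, + strand), Uhrf1 (chr17:56304093-56304170, + strand), Mcm6 (chr1:128359710-128359787, − strand) and Mcm5 (chr8:75109321-75109402, + strand) all lie before the start, and are shown because these 4 low genes of licensing, methylation and the helicase carry the letters. They read 5′ to 3′ on the strand of the gene, with the matched letters in capitals:
Cdc6: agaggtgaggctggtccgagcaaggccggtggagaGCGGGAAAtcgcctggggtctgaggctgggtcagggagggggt
Uhrf1: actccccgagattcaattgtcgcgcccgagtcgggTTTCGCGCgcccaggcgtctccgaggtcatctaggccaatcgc
Mcm6: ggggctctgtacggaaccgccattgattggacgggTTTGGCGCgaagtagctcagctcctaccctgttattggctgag
Mcm5: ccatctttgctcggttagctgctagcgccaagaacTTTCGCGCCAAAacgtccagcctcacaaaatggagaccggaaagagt
In Mcm5 matches on both strands overlap. A match is a description of the letters and not of binding.

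The genes of G2, mitosis and the kinetochore had a median of −1.29 over 35 genes. Of these, 26 were lower past 2-fold and none higher, against 5.34% of all genes lower. Their summed level was 5611 CPM in shSCR IgG and 2254 CPM in shCerS4 IgG. Top2a, the topoisomerase that untangles sister chromatids, was the most abundant, at 1001 CPM in shSCR IgG and 258 CPM in shCerS4 IgG (−1.96 [−2.0, −1.91]), and at 449 and 159 CPM with Caprin-1. Espl1, the separase that cuts cohesin, stood at 39.2 and 8.54 CPM (−2.19 [−2.45, −1.96]). Both genes were thus several-fold lower in shCerS4 IgG. Of the chromosomal passenger complex, Birc5 stood at −1.88 and the kinase gene Aurkb at −1.73, whereas Incenp (−0.73) and Cdca8 (−0.84) stayed under 2-fold. The mitotic kinase gene Plk1 stood at 152 and 49.2 CPM (−1.63), the cyclin gene Ccnb1 at 165 and 54.4 CPM (−1.60) and the kinesin gene Kif2c at 102 and 30.1 CPM (−1.76). Cdk1, the kinase that Ccnb1 activates, stood at 174 and 109 CPM (−0.67), and the smallest ratio in size was that of the phosphatase gene Cdc25c (−0.47).

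A second promoter element, CHR, is known from mitotic genes. Its letters TTTGAA and TTCGAA, searched on both strands as above, matched in 22 of the 28 mitotic genes with a promoter entry (78.6%), against 19.2% of all promoters and 15.9% of the compared genes. Of the compared genes 8.25% with a match and 4.39% without were lower past 2-fold. These shares include the mitotic list itself, with 16 of its 22 matched genes lower. Within the list the median was −1.19 with a match and −1.38 without. Shown for the low members Espl1 (chr15:102296231-102296292, + strand), Top2a (chr11:99024190-99024247, − strand) and Kif2c (chr4:117178835-117178910, − strand), the sequence before the start reads, with the match in capitals:
Espl1: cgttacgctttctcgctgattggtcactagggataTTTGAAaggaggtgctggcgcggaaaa
Top2a: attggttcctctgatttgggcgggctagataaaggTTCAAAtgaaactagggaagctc
Kif2c: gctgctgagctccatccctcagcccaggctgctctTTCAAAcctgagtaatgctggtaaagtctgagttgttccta
The matched letters in Top2a and Kif2c are TTTGAA on the opposite strand.

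**Figure D2:**
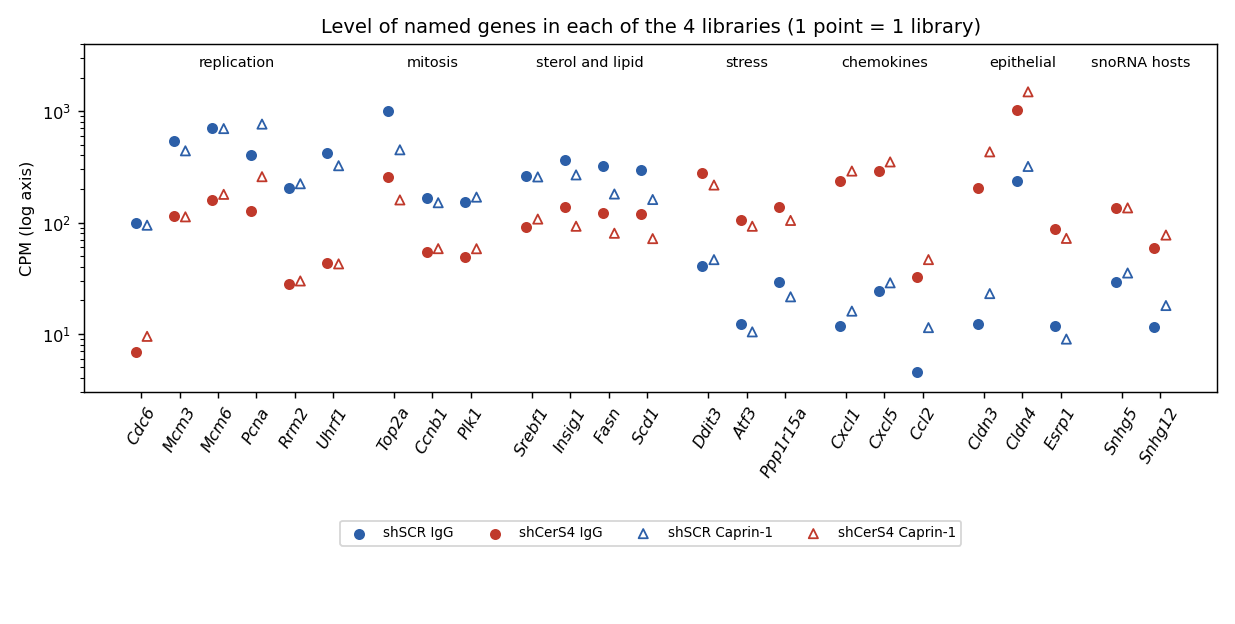
CPM on a log axis of 24 named genes in each of the 4 libraries, 1 point per library, with circles for IgG, triangles for Caprin-1, blue for shSCR and red for shCerS4. In each of these genes both shCerS4 points lie on the same side of both shSCR points, from Cdc6 at 99.1 and 6.86 CPM in the IgG libraries to Cldn4 at 237 and 1027 CPM.

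DNA damage response and repair genes had a median of −0.76 over 30 genes. Past 2-fold, 13 were lower and none higher, against 5.34% of all genes lower. Brca1, which acts in homologous recombination, stood at 64.9 CPM in shSCR IgG and 11 CPM in shCerS4 IgG (−2.55 [−2.77, −2.35]). Exo1 (−2.38), a nuclease gene of the same pathway, and the Fanconi gene Fancd2 (−2.21) were low too, as was the checkpoint kinase gene Chek1, at 110.4 and 21.9 CPM (−2.33). Genes of end joining and damage sensing lay nearer 0, with Xrcc6 at −0.04, Atm at −0.09 and Ercc1, of nucleotide excision repair, at 159.6 and 156 CPM (−0.03). Among histone genes H1f0, a linker histone with a polyadenylated mRNA, stood at 4014 and 1766 CPM (−1.18 [−1.2, −1.17]). It led the histone list, in which 4 of 10 measured genes were lower past 2-fold and the median was −0.62. H2ax (−1.37), H2az2 (−1.33) and Slbp (−1.06), which binds the stem loop of replication histone mRNAs, were the other 3, and H2az1 stood at −0.74.

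Cyclins, kinases and inhibitors of G1 were mixed, with a median of −0.35 over 20 measured of 25 listed genes. Of these, 6 were lower and 1 was higher past 2-fold, against 5.34% and 5.69% of all genes. Cdk6, a G1 kinase gene within the run on chromosome 5, stood at 1506 and 361 CPM (−2.06 [−2.10, −2.02]). Ccnd1, the most abundant G1 cyclin gene of the list, stood at 3142 and 1800.5 CPM (−0.80), whereas Ccnd2 stood at 134 and 267 CPM (1.00), just past 2-fold on the higher side. The ratio of Ccnd2 was 0.90 under trimmed-mean scaling and so under 2-fold, and Ccnd1 did not reach 2-fold. Cdkn1a, the p21 inhibitor and a p53 target, stood at 33.3 and 7.11 CPM (−2.22 [−2.50, −1.96]). The repressor gene E2f8 stood at −2.10, E2f2 at −1.68 and the pocket protein gene Rbl1 at −1.31. Myc, a growth factor-induced transcription factor gene, stood at 209 and 387 CPM (0.89), under 2-fold.

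Apart from Cdkn1a, the list of p53 targets lay mostly above 0, at 18 of 21 genes and a median of 0.46. Past 2-fold, 5 were higher, against 5.69% of all genes. Gadd45a, a damage- and stress-induced gene, stood at 134 CPM in shSCR IgG and 378 CPM in shCerS4 IgG (1.5 [1.43, 1.56]). Fas, the death receptor gene, stood at 2.87 and 15.1 CPM (2.39 [1.98, 2.83]), Bbc3, which encodes PUMA, at 1.10 and Plk2 at 1.08. Mdm2, the ubiquitin ligase that p53 itself induces, stood at 73.6 and 76.4 CPM (0.05).

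**Figure D3:**
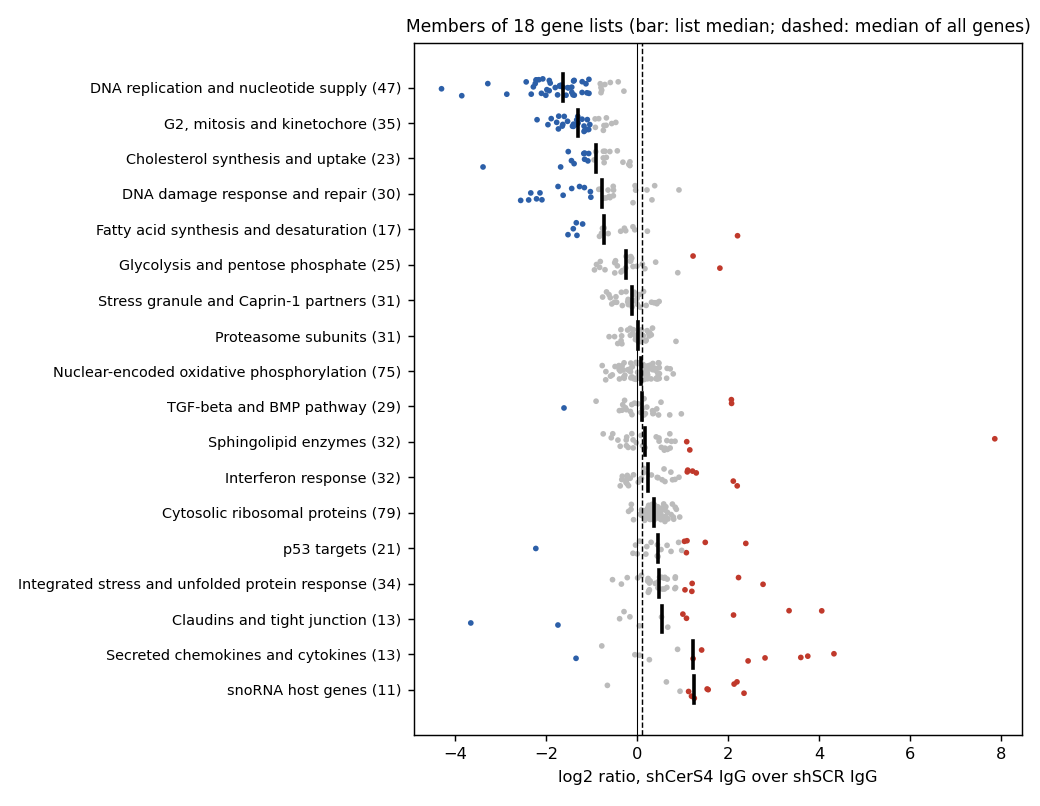
Log2 ratio of shCerS4 IgG over shSCR IgG for the measured members of 18 gene lists, 1 point per gene, red where higher and blue where lower past 2-fold, with the number of measured genes in parentheses. The black bar is the list median, from −1.62 for DNA replication to 1.26 for snoRNA host genes, and the dashed line is the median of all genes at 0.10.

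Cholesterol synthesis and uptake genes all lay below 0, 23 of 23, with a median of −0.91. Past 2-fold, 10 were lower, against 5.34% of all genes. Insig1, which retains the SREBP escort protein in the endoplasmic reticulum, stood at 363 CPM in shSCR IgG and 139 CPM in shCerS4 IgG (−1.38 [−1.45, −1.32]) and at 267 and 92.6 CPM with Caprin-1. Cyp51, lanosterol demethylase, had the lowest ratio, −3.38 at 636 and 61.0 CPM, and it lies within the run on chromosome 5. The isomerase gene Idi1 (−1.44) and Hsd17b7 (−1.68), which reduces a sterol intermediate, were low as well. Mvd and Sc5d, an early and a late enzyme, stayed near 0 at −0.16 and −0.16.

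CCAAT, the site of NF-Y, which acts beside SREBP at sterol genes, was found on either strand in 15 of the 16 cholesterol genes with a promoter entry (93.8%), against 37.4% of all promoters and 43.5% of compared genes. For Idi1 (chr13:8885526-8885605, + strand), a low gene outside the run on chromosome 5, the bases up to the start hold it at more than 1 place, in capitals on the opposite strand:
Idi1: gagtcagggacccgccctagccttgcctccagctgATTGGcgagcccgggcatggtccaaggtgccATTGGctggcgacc

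Fatty acid synthesis followed, with a median of −0.72 over 17 genes. Past 2-fold, 5 were lower and 1 higher, against 5.34% and 5.69% of all genes. Srebf1, the lipogenic SREBP gene, stood at 260.5 CPM in shSCR IgG and 91.1 CPM in shCerS4 IgG (−1.52 [−1.59, −1.44]), and Fasn, fatty acid synthase, at 323 and 122 CPM (−1.40). The desaturase genes Fads2 (−1.33) and Scd1 (−1.32) were lower past 2-fold, and Scd2, the most abundant member, stood at 2124 and 1237 CPM (−0.78). In contrast, Acsl1, an acyl-CoA synthetase gene, stood at 4.99 and 23.1 CPM (2.21 [1.90, 2.54]). The list median with Caprin-1 was −0.35.

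Enzymes of sphingolipid metabolism, to which the knockdown target belongs, had a median of 0.17 over 32 measured genes. Past 2-fold, 3 were higher and none lower, against 5.69% and 5.34% of all genes. The other measured ceramide synthase genes did not reach 2-fold. Cers2, which makes very long chain ceramides, stood at 215 and 342 CPM (0.67 [0.61, 0.72]), Cers5 at 65.8 and 60.8 CPM (−0.11 [−0.23, −0.00]) and Cers6 at 41.9 and 58.6 CPM (0.48 [0.35, 0.61]). The shares of Cers2 and Cers6 were thus larger in shCerS4 IgG and that of Cers5 was slightly smaller. Sphk1, a sphingosine kinase gene, stood at 39.9 and 89.1 CPM (1.16 [1.04, 1.28]) and Asah2, neutral ceramidase, at 15.3 and 32.7 CPM (1.09). Psap, the saposin precursor, stood at 749 and 1235 CPM (0.72) and Asah1, acid ceramidase, at 0.73, both under 2-fold. Sgpl1, which degrades sphingosine 1-phosphate, stood at 0.83. B4galt6, which makes lactosylceramide, had 2 reads in shSCR IgG and 573 in shCerS4 IgG, a ratio of 7.85 with the wide interval [6.31, 11.22] that so few reads give, and it passed the filter only through the shCerS4 libraries.

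Genes with the lowest ratios clustered in the genome. Along the chromosomes, 9996 windows of 15 neighbouring compared genes were taken, and the lowest ran from Cldn12 to Elapor2 (chr5:5505015-9484663 in GRCm38.p6), with a median of −3.56 and 14 of its 15 genes lower past 2-fold. It belongs to a run of 27 compared genes at the start of chromosome 5, of which 25 were lower. Abcb1b, a P-glycoprotein drug exporter gene, stood at 2535 CPM in shSCR IgG and 80.8 CPM in shCerS4 IgG (−4.97 [−5.04, −4.90]), and its paralog Abcb1a at 114 and 3.55 CPM (−5.0). Reads may be divided between these close copies with some error. The neighbours Sri (−3.75), a calcium-binding protein gene, Crot (−3.95), a carnitine acyltransferase gene, Steap4 (−4.17), a metalloreductase gene, Rundc3b (−3.56), Tmem243 (−3.15) and Elapor2 (−4.31) were among the 15 lowest genes. In the order of compared genes the run ended at Elapor2. The next one, Sema3e, a semaphorin gene that starts at chr5:14025276, stood at 30.1 and 79.1 CPM (1.40 [1.26, 1.53]). Those after it, Phtf2 (1.06) and Tmem60 (0.89), also lay above 0. No compared gene lay between Elapor2 and Sema3e, so where in that gap the run ends is not known. That the run was low in both precipitates was already known from these data.

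**Figure D4:**
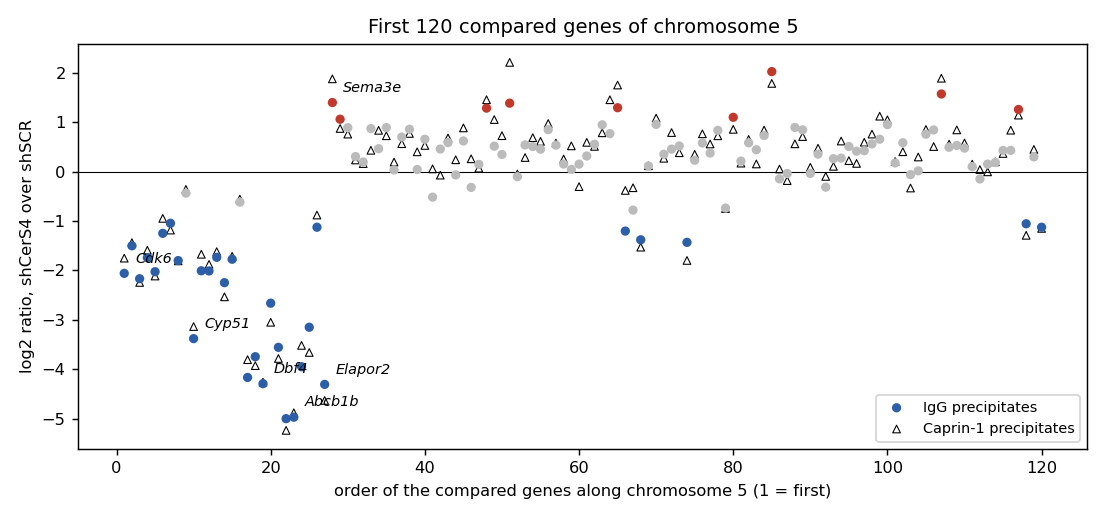
Log2 ratio of shCerS4 over shSCR for the first 120 compared genes of chromosome 5 in their order along the chromosome, circles for IgG (red higher, blue lower past 2-fold, grey neither) and open triangles for Caprin-1. The first 27 genes lie below 0, down to −5.00 for Abcb1a, and Sema3e, the next gene, lies at 1.40.

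Among windows that do not overlap it, the next lowest ran from Tuba1b to Asic1 (chr15:98931429-99701130), at a median of −0.80 with 7 genes lower and 1 higher, and from Trps1 to Has2 (chr15:50654757-56694546), at −0.75. The highest window ran from Utp3 to Thap6 (chr5:88554462-91972137), with a median of 0.86 and 7 genes higher, and it holds the chemokine genes Cxcl1 and Cxcl5. Those from Cyba to Cdk10 (chr8:122424771-123232256) and from Dctn6 to Cnot7 (chr8:34090420-40515847) had medians of 0.85 and 0.82. Whole chromosomes differed less, from a median of −0.20 on chromosome 11 over 870 genes to 0.42 on chromosomes 8 and 10.

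By absolute share, the largest losses were in abundant mRNAs. Apart from Rn45s, they comprised D17H6S56E-5 (4297 and 1576 CPM), Lgals1, a galectin gene (5625 and 3131 CPM, −0.85), Abcb1b, H1f0, the tubulin gene Tubb5 (3835 and 2174 CPM, −0.82), Itga3, Dbf4, Igfbp4, a binding protein of insulin-like growth factors (3000.3 and 1632 CPM, −0.88), and Ccnd1. The largest gains were led by elongation factors. Eef2, which moves the ribosome along, stood at 5721 CPM in shSCR IgG and 9638 CPM in shCerS4 IgG (0.75 [0.74, 0.76]). Eef1a1, which delivers aminoacyl-tRNA, stood at 10163 and 13478 CPM (0.41), and neither reached 2-fold. Rpl4, a ribosomal protein gene (0.61), Sars, a tRNA synthetase gene (0.99), the chaperone genes Hspa5 (0.54) and Hspa9 (0.87), Nfe2l1, a regulator of proteasome genes (1.06), and the autophagy receptor gene Sqstm1 (0.38) followed.

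Ribosomal protein genes lay mostly on one side of 0 by small amounts. Of 79 measured genes 75 lay above 0, with a median of 0.37 and a range from −0.19 to 0.94, and none reached 2-fold. The median was 0.28 under trimmed-mean scaling and 0.16 in the Caprin-1 precipitates. Rpl4 stood at 1916 and 2929 CPM (0.61 [0.59, 0.63]). Rps6 had 14.7 and 25.7 CPM while its processed copy Rps6-ps4 had 1458 and 2355 CPM, so the reads of such near-identical copies are uncertain gene by gene.

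Host genes of small nucleolar RNAs, whose introns release the guides of ribosomal RNA modification, had the highest list median, 1.26 over 11 measured of 20 listed genes. Of these, 8 were higher past 2-fold and none lower, against 5.69% of all genes higher. Snhg5 stood at 29.4 CPM in shSCR IgG and 135 CPM in shCerS4 IgG (2.19 [2.06, 2.33]), and at 35.2 and 135 CPM with Caprin-1. Snhg12 stood at 11.5 and 58.7 CPM (2.35 [2.14, 2.56]), Snhg16 at 2.13, Snhg1 at 1.56 and Zfas1 at 50.7 and 147 CPM (1.54). Each of these was several-fold higher in shCerS4 IgG. Tug1, counted in this list and among nuclear RNAs, went the other way at 305 and 194 CPM (−0.65). Whether Tug1 hosts a small nucleolar RNA was not checked here, and the 11 genes and their median include it. Several of these RNAs overlap or lie antisense to coding genes, and nothing states from which strand the reads came, so reads of both partners cannot be told apart.

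Over all 102 long non-coding RNA genes compared, 21 (20.6%) were higher and 10 (9.80%) lower past 2-fold, with a median of 0.27. The 10103 protein-coding genes had a median of 0.10, with 557 (5.51%) higher and 534 (5.29%) lower. The nuclear and architectural RNAs had a median of 0.17 over 9 genes. Neat1, the scaffold of paraspeckles, stood at 159 and 292 CPM (0.88), Norad, a cytoplasmic decoy of Pumilio proteins, at 375 and 469 CPM (0.32), and Pvt1 at 1.03. Rpph1, the RNA of ribonuclease P, stood at 0.47. H19, the imprinted RNA that hosts a microRNA, stood at 44.7 and 6.86 CPM (−2.70 [−2.98, −2.44]) and was the 1 lower member.

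Secreted chemokines and cytokines had a median of 1.23 over 13 measured of 25 listed genes. Past 2-fold, 7 were higher and 1 lower, against 5.69% and 5.34% of all genes. Cxcl1 (chr5:90891245-90893121 in GRCm38.p6), a neutrophil chemokine gene, had the highest ratio of all genes whose mean reached 20 CPM. It stood at 11.8 CPM in shSCR IgG and 237 CPM in shCerS4 IgG (4.32 [4.14, 4.52]), and at 16 and 289.5 CPM with Caprin-1. Cxcl5, of the same gene cluster and a ligand of the same receptor, stood at 24.1 and 292 CPM (3.59 [3.46, 3.73]). Both were low in both shSCR libraries and high in both shCerS4 libraries. Ccl2, a monocyte chemokine gene, stood at 4.59 and 32.3 CPM (2.81 [2.50, 3.15]), Il1a, an alarmin gene, at 3.03 and 41.0 CPM (3.75) and Ccl20 at 3.33 and 18.1 CPM (2.44). Ccl2, Il1a and Ccl20 thus lay under 5 CPM in shSCR IgG. The filter on the mean of all 4 libraries can keep such genes for their shCerS4 levels. The list median and the count of higher genes rest partly on them. The colony-stimulating factor genes Csf1 (164 and 385 CPM, 1.23) and Csf3 (94.3 and 252 CPM, 1.42) were higher past 2-fold. Vegfa, an angiogenic factor gene, stood at −0.05, and Tslp, an epithelial cytokine gene, was lower at −1.34.

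The kappaB letters, GGGA or GGGG and TTCC with any 2 bases between them, were searched on both strands of the promoters, since chemokine genes are known targets of NF-kappaB. They matched in 3 of the 7 genes of the list with a promoter entry, against 2.92% of all promoters and 3.79% of the compared genes, of which 4.78% with and 5.28% without a match were higher past 2-fold. Shown for Cxcl1 (chr5:90891139-90891219, + strand) and Ccl20 (chr1:83116651-83116730, + strand), the matches in capitals lie shortly before the start:
Cxcl1: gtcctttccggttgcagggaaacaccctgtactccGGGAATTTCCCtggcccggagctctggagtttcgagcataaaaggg
Ccl20: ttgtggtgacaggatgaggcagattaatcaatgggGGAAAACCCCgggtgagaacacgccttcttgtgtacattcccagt
In Cxcl1 overlapping matches on both strands make up the capitals.

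The NF-kappaB factors and their feedback genes lay above 0 in 16 of 20 cases, with a median of 0.46. Past 2-fold, 2 were higher and 1 lower, against 5.69% and 5.34% of all genes. Zc3h12a, an RNase that degrades cytokine mRNAs, stood at 16.7 and 56.3 CPM (1.75 [1.58, 1.94]) and Nfkbiz, an atypical inhibitor gene, at 27.5 and 76.9 CPM (1.48). Tnfaip3, which encodes A20, a brake on the pathway, stood at 0.92, Sod2 at 0.85 and the most abundant member, Tnfaip2, at −0.17. Icam1, an adhesion gene, was lower at 19.3 and 5.90 CPM (−1.70). Acute-phase and complement genes were mixed around a median of 0.58 over 8 genes. Lcn2, lipocalin 2, stood at 53.3 and 270.3 CPM (2.34 [2.25, 2.44]), and the complement protease genes C1s1 (2.50) and C1ra (2.15) were higher. Clu, clusterin, stood at 0.59 and the tissue factor gene F3 at −0.73. Cebpd, an acute-phase transcription factor gene, was among the 15 highest genes of that abundance, at 4.85 and 49.6 CPM (3.35 [3.05, 3.68]).

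Stress response genes were next. Of 34 genes of the integrated stress and unfolded protein response, 31 lay above 0, and the median was 0.48. Past 2-fold, 5 were higher and none lower, against 5.69% and 5.34% of all genes. Ddit3, which encodes the factor CHOP, stood at 40.6 CPM in shSCR IgG and 276 CPM in shCerS4 IgG (2.77 [2.66, 2.88]). Ppp1r15a, the phosphatase subunit that ends the response, stood at 29.3 and 137 CPM (2.23 [2.10, 2.36]). Both were high in both shCerS4 libraries, with Caprin-1 ratios of 2.22 and 2.28. Atf5 (1.21), Trib3 (1.2) and Nupr1 (1.05), targets of ATF4, were higher past 2-fold, whereas Atf4 itself stood at 496 and 599.6 CPM (0.27). The ratio of Nupr1 was 0.96 under trimmed-mean scaling and so under 2-fold. Hspa5, the chaperone BiP of the endoplasmic reticulum, stood at 1577 and 2293 CPM (0.54), and Pdia6, a disulfide isomerase gene, at −0.54. The composite site of CHOP and ATF4 was searched as TGATGCAAT, TGATGCAAC and TGATGAAAC on both strands. It matched in 4 of the 31 listed genes with a promoter entry (12.9%), against 0.606% of all promoters and 0.482% of compared genes. For Nupr1 (chr7:126625538-126625616, − strand) it lies on the opposite strand, in capitals:
Nupr1: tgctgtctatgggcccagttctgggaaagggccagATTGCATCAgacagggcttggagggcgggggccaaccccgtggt

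Other stress lists had no common direction. Immediate early AP-1 and EGR genes had a median of 0.05, which turned to −0.05 under trimmed-mean scaling, with Atf3 higher (12.4 and 105 CPM, 3.08 [2.89, 3.28]), Fosl2 at 1.57, Jund at 335 and 744 CPM (1.15) and Egr1 lower at −1.58. Junb, another AP-1 subunit gene, stood at 0.37 and Dusp5, a phosphatase of ERK, at 0.89. Heat shock chaperones had a median of 0.05, also turning to −0.05. Of 19, 1 was higher and 1 lower, near the 5.69% and 5.34% of all genes. Hspb8, a small chaperone gene, stood at 1.14, Hspb1 at 10.4 and 3.71 CPM (−1.48), and Hsp90ab1, the constitutive HSP90, at 8223 and 7395 CPM (−0.15). NRF2 and its targets had a median of −0.12. The oxidoreductase genes Aldh3a1 (49.1 and 8.13 CPM, −2.59) and Nqo1 (−1.46) and the transferase gene Gstm1 (−1.23) were lower past 2-fold, while Hmox1, heme oxygenase, stood at 11.4 and 38.2 CPM (1.74). Of the ferritin chains, Fth1 stood at 0.53 and Ftl1 at −0.85. Hypoxia targets had a median of −0.05, with Adm, adrenomedullin, at 0.403 and 12.4 CPM (4.85 [3.93, 6.16]) and P4ha2, a collagen prolyl hydroxylase gene, at −1.33.

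Epithelial genes of the same family stood on both sides of equal shares. Past 2-fold, 5 of 13 measured claudin and tight junction genes stood higher and 2 lower, against 5.69% and 5.34% of all genes. Their median of 0.54 was −0.17 when each gene was represented by its most abundant transcript. Cldn4 stood at 237 CPM in shSCR IgG and 1027 CPM in shCerS4 IgG (2.12 [2.07, 2.16]) and at 318 and 1488 CPM with Caprin-1. Cldn3 stood at 12.3 and 204 CPM (4.05 [3.87, 4.25]). Both barrier-forming claudins thus had larger shares in shCerS4 IgG. Cldn9, another claudin gene, had the opposite order at 46.8 and 3.71 CPM (−3.65 [−4.02, −3.31]), as did Cldn12 of the chromosome 5 run (−1.74). Cldn23 stood at 3.34 and Cldn7 at 34.7 and 73.8 CPM (1.09).

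Esrp1 and Esrp2, splicing regulators that keep the epithelial pattern of exons, stood at 11.8 and 88.0 CPM (2.90 [2.71, 3.11]) and at 4.84 and 22.0 CPM (2.18). The epithelial transcription factor gene Grhl2 stood at 1.06, Elf3 at 1.24 and E-cadherin, Cdh1, at 220.3 and 356 CPM (0.69). Among mesenchymal genes of the list S100a4 was past 2-fold, at 568 and 179 CPM (−1.66 [−1.72, −1.61]). Vim, vimentin, stood at 3722 and 3184 CPM (−0.23), Twist1 at −0.02 and Zeb2 at 0.37. The list of epithelial-mesenchymal transition genes had a median of 0.33. In it 3 of 14 were higher and 1 lower, against 5.69% and 5.34% of all genes. Keratins and cornified genes had 3 of 15 higher and 1 lower, against the same shares of all genes. Krt8 was the lower one (1892 and 868 CPM, −1.12), and its partner Krt18 stood at 1914 and 1228 CPM (−0.64). Cdsn, corneodesmosin, stood at 3.63 and 49.3 CPM (3.75 [3.42, 4.13]), and the desmosome genes Dsc2 (1.45) and Dsp (1.03) were higher as well. Stbd1, a glycogen-binding protein gene, stood at 3.73, the channel-like gene Tmc4 at 3.41, the polarity scaffold gene Cask at 3.39 and the myosin gene Myh14 at 3.16, and all were among the 15 highest.

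Adhesion, matrix and protease genes had lists centred near 0 with large single ratios. Itga3, a laminin receptor subunit and the most abundant integrin gene, stood at 2114 CPM in shSCR IgG and 611 CPM in shCerS4 IgG (−1.79 [−1.82, −1.76]). Itgb3 (47.9 and 6.10 CPM, −2.97), Itgb7 (−1.59) and Itga1 (−1.39) were lower past 2-fold, Itga7 was higher (1.18), and the median of 16 integrin genes was −0.17. Among 21 matrix genes, the median of 0.09 turned to −0.01 under trimmed-mean scaling. On each side 2 were past 2-fold, against 5.69% of all genes higher and 5.34% lower. Postn, periostin, stood at 1.06 and 34.4 CPM (4.99 [4.40, 5.72]), Fbln2 at 224 and 569 CPM (1.35), Fbln1 at 20.8 and 1.22 CPM (−4.07 [−4.75, −3.50]) and Mgp, matrix Gla protein, at 63.0 and 4.78 CPM (−3.71). The fibulins thus had opposite directions. Spp1, osteopontin, the most abundant matrix gene, stood at −0.38 and Thbs1, thrombospondin, at 0.96.

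Of 20 invasion proteases and inhibitors, 3 were lower and 1 was higher, against 5.34% and 5.69% of all genes. The median was −0.07. Mmp9, a gelatinase gene, stood at 640.3 CPM in shSCR IgG and 127 CPM in shCerS4 IgG (−2.33 [−2.40, −2.27]), and Mmp10, a stromelysin gene, at −2.07. Serpine2, an inhibitor of plasminogen activators, stood at 259.7 and 51.5 CPM (−2.33). Ctsl, cathepsin L, the most abundant, stood at 3436 and 2358 CPM (−0.54) and Plaur, the urokinase receptor, at −0.74. In the S100 list 2 of 9 genes were lower and the median was −0.02, with S100b at 15.5 and 2.90 CPM (−2.41) and S100a6 at −0.02.

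Interferon response genes had a median of 0.23 over 32 genes. Past 2-fold, 6 were higher and none lower, against 5.69% and 5.34% of all genes. Usp18, which removes ISG15 and dampens the receptor, stood at 2.47 and 11.4 CPM (2.20 [1.76, 2.69]) and Ifit3, an RNA-binding antiviral gene, at 1.89 and 8.25 CPM (2.11). Both rest on low levels. Bst2, tetherin, stood at 26.1 and 60.7 CPM (1.22), Rsad2, viperin, at 1.11 and Ifi44 at 1.30, while Irf1, the most abundant member, stood at 0.07 and Isg15 at −0.37. The letters of the interferon element, GAAA on either side of any 2 bases, matched in 12 of the 27 listed genes with a promoter entry. The background was 3.44% of all promoters and 3.59% of compared genes. Within that list the median ratio was 0.21 with a match and 0.46 without. No antigen presentation gene reached 2-fold among 15, and the median was 0.22. H2-T23, a non-classical class I gene, had the largest ratio (189 and 359 CPM, 0.93), the transporter genes Tap1 and Tap2 stood at 0.47 and 0.33, H2-D1 at 0.24 and Tapbp, the peptide loading factor, at −0.38.

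Cd274, which encodes PD-L1, was the 1 gene past 2-fold among 14 checkpoint ligands and receptors. Its IgG levels were 324 and 101 CPM (3.21-fold lower). The list median was 0.28, and Lgals3, a galectin gene (0.75), Vsir, which encodes VISTA (0.70), and Hmgb1 (−0.41) stayed under 2-fold. The receptor genes of interferon gamma, which induces Cd274, stood at 0.61 for Ifngr1 and −0.61 for Ifngr2. Genes of stress granules and Caprin-1 partners had none of 31 past 2-fold, against 5.69% higher and 5.34% lower over all genes. Their ratios ranged from −0.76 to 0.49 with a median of −0.10. G3bp1, the granule scaffold, stood at 516 and 306 CPM (−0.76 [−0.80, −0.71]), Caprin1 at 552 and 405 CPM (−0.45 [−0.49, −0.41]) and Pabpc1, the poly(A)-binding protein gene, at −0.08. Tia1 (−0.67), Ubap2l (−0.62) and Ago2 (−0.59) had the next largest ratios in size.

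In the list of TGF-beta and BMP signalling the median was 0.12 over 29 genes. Of these, 2 were higher and 1 lower, against 5.69% and 5.34% of all genes. Among ligands Tgfb2 was higher (4.84 and 20.5 CPM, 2.08 [1.76, 2.42]), while Tgfb1 stood at 113 and 60.7 CPM (−0.90) and Inhba, an activin subunit gene, at 0.97. The receptor gene Tgfbr1 stood at 0.15 [0.07, 0.23], and Bmp1, the most abundant member, which processes procollagen, at −0.12. Among targets Id2, a BMP-induced inhibitor of differentiation factors, was lower (49.5 and 16.3 CPM, −1.60). For the Hippo pathway the median was 0.14, and the 3 genes past 2-fold among 21 were targets of YAP: Ccn2 (46.9 and 177 CPM, 1.91 [1.81, 2.02]), Ccn1 (1.43) and Ankrd1 (1.35). The kinase scaffolds and factors themselves stayed under 2-fold, with Yap1 at −0.10, Amotl2 at 0.91 and Ajuba at 0.79, and Axl, the most abundant member, at 0.09.

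In the Wnt list 3 genes were higher and 3 lower of 27, against 5.69% and 5.34% of all genes. The median was −0.04. Wnt7a, a ligand gene, stood at 11.6 CPM in shSCR IgG and 78.8 CPM in shCerS4 IgG (2.76 [2.56, 2.96]), and Wnt10a, another ligand gene, at 41.6 and 9.66 CPM (−2.10 [−2.34, −1.88]). The ligands thus went opposite ways. Porcn, which acylates Wnt ligands, stood at 2.53, the receptor gene Fzd1 of the chromosome 5 run at −2.01, the nuclear factor gene Lef1 at 1.86 and Ctnnb1, beta-catenin, at 2444 and 1831 CPM (−0.42). In the hedgehog list, with a median of 0.23 over 13 genes, Ptch1, the receptor that is also a target, stood at 11 and 27.8 CPM (1.33 [1.10, 1.56]), and Hhip, which binds the ligands, at 145 and 27.4 CPM (−2.41 [−2.54, −2.27]). The coreceptor gene Boc stood at 0.96, the signal transducer gene Smo at 0.48 and Disp1, which releases the ligand, at −0.75. Kif7, a kinesin of the pathway, stood at −1.10, but its most abundant transcript alone gave 0.24.

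Few genes of energy metabolism and protein turnover reached 2-fold, which 5.69% of all genes did on the higher and 5.34% on the lower side. Nuclear-encoded oxidative phosphorylation genes had none of 75 past 2-fold and a median of 0.08, which was −0.01 under trimmed-mean scaling, from Ndufb9 (−0.76), a complex I subunit gene, to Ndufa6 (0.79), another. Proteasome subunits had none of 31 past 2-fold and a median of 0.02, −0.07 under trimmed-mean scaling, from Psmd13 (−0.61) to Psmc2 (0.85), subunits of the regulatory particle. Glycolysis and pentose phosphate genes lay below 0 in 19 of 25 cases, with a median of −0.24. Ldha, lactate dehydrogenase A, stood at 1089 and 569.7 CPM (−0.93) and its sister gene Ldhb at 11 and 25.8 CPM (1.23). Pfkfb3, which makes the activator of phosphofructokinase, was higher at 13.4 and 47.5 CPM (1.82 [1.63, 2.03]), while Pfkfb4 stood at −0.89 and Pkm, pyruvate kinase, at −0.35. Of 20 ABC transporters 3 were lower and 1 higher, with a median of 0.05 that was −0.04 under trimmed-mean scaling. Besides the P-glycoprotein genes, Abcc3, an exporter of organic anions, stood at 108 and 40.9 CPM (−1.40) and the mitochondrial transporter gene Abcb10 at 1.27.

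Transcripts of 1 gene sometimes went opposite ways. The deposited table names no transcript, and reads were shared among the transcripts of a gene by estimation, so these values are less certain than sums. Of 1029 symbols with 2 or more transcripts whose mean reached 20 CPM, 15 had 1 transcript past 2-fold higher and another past 2-fold lower. For Srsf3, a splicing factor gene, the more abundant transcript stood at 268 CPM in shSCR IgG and 72.5 CPM in shCerS4 IgG (−1.88), and the other at 49.6 and 171 CPM (1.78). The Caprin-1 precipitates gave −1.66 and 1.79 for the same transcripts of Srsf3. For Mcm7, transcripts at 164 and 210 CPM in shSCR IgG stood at 67.5 and 62.7 CPM in shCerS4 IgG, and a further transcript at 8.43 and 53.5 CPM (2.66; Caprin-1 2.99). Transcripts of Mcm7 and Srsf3 thus kept their directions in both precipitates. For Hnrnpa2b1, another splicing factor gene, ratios ran from −2.58 to 1.49 with IgG and from −1.14 to −0.11 with Caprin-1. Arhgef2, an exchange factor of RhoA, ran from −1.63 to 1.78 and from −1.25 to 2.62, and Ttc33 from −2.70 to 0.70 and from −0.50 to −0.26.

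The same contrast in the Caprin-1 precipitates shares no library with the IgG contrast but uses the same cell lines. Of the 585 genes higher with IgG, 396 were also higher past 2-fold with Caprin-1, 67.7% of the IgG genes and 61.6% of the 643 Caprin-1 genes. Of the 549 lower genes, 413 were shared, 75.2% of the IgG genes and 81.1% of the 509 Caprin-1 genes. No call of either precipitate was contradicted by an opposite call of the other. Only the sign differed, for 2 of the higher and 7 of the lower IgG genes, and in 4 of the latter the Caprin-1 interval excluded 0. Some calls rest on genes scarce in both precipitates of a line. Under 5 CPM lay 98 of the higher genes in both shSCR libraries and 71 of the lower genes in both shCerS4 libraries.

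**Figure D5:**
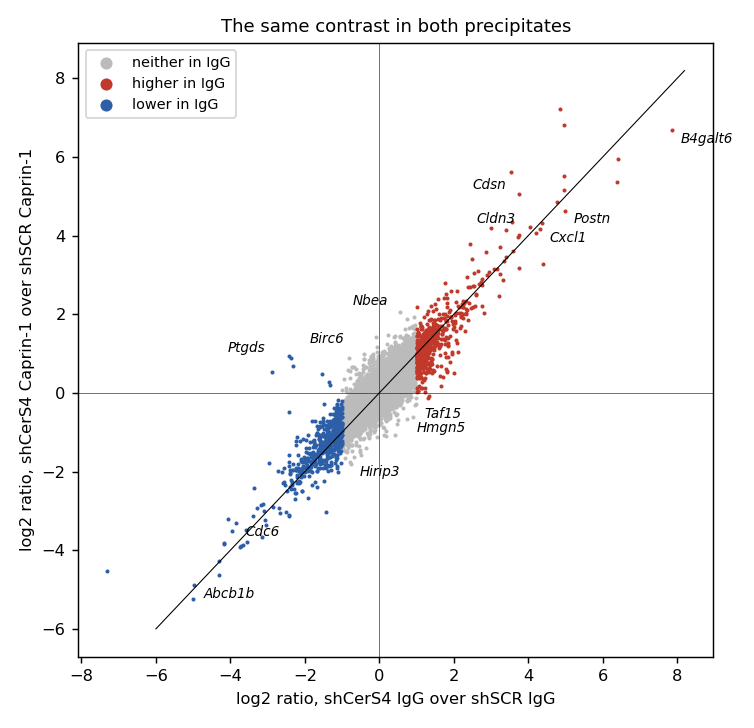
Log2 ratio of shCerS4 over shSCR with IgG (horizontal) against the same ratio with Caprin-1 (vertical), 1 point per gene, red for genes higher and blue for genes lower past 2-fold with IgG, and the line marks equal ratios. Ptgds lies in the upper left at −2.32 with IgG and 0.68 with Caprin-1.

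Where the mean reached 20 CPM, the largest departures between the precipitates were as follows. Ptgds, a prostaglandin D synthase gene, stood at −2.32 with IgG and 0.68 with Caprin-1. Birc6, a giant ubiquitin ligase gene, stood at −0.41 with IgG and 0.99 with Caprin-1, Nbea, neurobeachin, at 0.74 and 1.88, the collagen gene Col4a5 at −0.22 and 0.91, Vps13b, a lipid transfer protein gene, at −0.27 and 0.83, the polycystin gene Pkd1 at −0.16 and 0.86, Cdsn at 3.75 and 5.06 and the sorting receptor gene Sorl1 at −0.21 and 0.78. In all of these the Caprin-1 ratio was the higher. On the other side stood Hmgn5, a nucleosome-binding protein gene, at 0.75 with IgG and −0.67 with Caprin-1, Taf15, an RNA-binding protein gene, at 0.97 and −0.32, Hirip3, a histone chaperone partner gene, at −0.77 and −1.80, Cd68 at −0.79 and −1.75, Pnisr at 1.48 and 0.55, Lpcat4 at 0.25 and −0.67, the exosome subunit gene Exosc2 at 0.28 and −0.64 and Fxyd5 at 0.19 and −0.71. These differences were not tested.

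Both limits of the comparison cut through a continuous range. Just inside 2-fold on the higher side lay Hscb, Tmem208 and Ccnd2, and just outside it Tmeff1, Ptp4a1 and Slc10a7, all at 2.0-fold when rounded. On the lower side Rfx7, Foxc2 and Commd4 lay just inside, and Etaa1, Lmnb2 and Gemin4 just outside, again at 2.0-fold. At the filter on the mean, Ube2d-ps and S100b were kept at a mean of 5.0 CPM, and Nmrk1 and Ccne1, a cyclin gene of G1, were left out at 4.99 CPM.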

How the data were processed

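RNA was sequenced from 4 precipitates of 4T1 cells, 1 library each. Reads were aligned with STAR in Partek to mm10, with no version given, per the submitters' processing notes, with the strand not given there. The values deposited by the authors were CPM per transcript with 0.0001 added to each, which was subtracted, although the table is named as raw counts. With 1 library per group no test was made. Transcripts (24393) were summed per symbol, and 7415 symbols had 1 transcript. Symbols were matched to the RefSeq table of GRCm38.p6, 12957 directly, 2 by a synonym and 8 not.

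The CPM worth of 1 read was read from the spacing of the values. Under 40 CPM, 79.8% to 81.2% of gene values and 28.2% to 29.5% of transcript values were whole reads within 0.05, since reads were shared among transcripts. Ratios were scaled to the library total with 0.5 reads added, and exact 95% binomial intervals came from the estimated reads. Reads carry no molecular identifiers, so the intervals cover counting error only.

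Members and gene lists were chosen with earlier results of these data known. Genes named were 12 whatever their values, the 15 highest and 15 lowest called ratios and the 8 highest and 8 lowest differences from Caprin-1 at a mean of at least 20 CPM, the 10 largest gains and losses in CPM, the most abundant and up to 5 most changed members of each list, 5 symbols by transcript spread, and genes at window ends and limits. Further list members were named for their roles, and genes after the chromosome 5 run for their place, once values had been seen. Some genes under these rules are not reported here. Alternatives were trimmed-mean (30% of ratios and 5% of abundances left out on each side), median-of-ratios and upper-quartile scaling, totals without the 50 most abundant genes, other filters, 5 added reads, the most abundant transcript per symbol, and no interval. The calculation was tested on simulated data. Python 3.11.15, numpy 2.4.6, pandas 2.3.3, scipy 1.17.1 and matplotlib 3.10.9 were used.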

Additional observations from a re-analysis of the deposited data

Results flagged for a closer look

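Ptgds, which encodes a prostaglandin D synthase, had opposite directions in the precipitates, with both intervals excluding 0. With IgG it stood at 79.0 CPM in shSCR and 15.8 CPM in shCerS4, a log2 ratio of −2.32 [−2.51, −2.15]. With Caprin-1 the levels were 8.73 and 14 CPM and the log2 ratio 0.68 [0.44, 0.92]. The high value was thus that of the shSCR IgG library alone. It was the 1 gene with a mean of at least 20 CPM to do so among those past 2-fold with IgG. With 1 library per group the difference was not tested.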

How the results depend on the processing

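No paired analysis was possible because each group held 1 library and no comparison was tested, and no library could be left out. The counts of 585 higher and 549 lower genes became 448 and 644 under trimmed-mean, 450 and 643 under median-of-ratios and 474 and 620 under upper-quartile scaling, 884 and 770 with a filter of 1 CPM, 297 and 338 with one of 20 CPM, 1237 and 1181 with none, and 724 and 671 with the most abundant transcript alone, of which 513 and 502 were shared. Without the 50 most abundant genes in the totals they were 542 and 573, with the filter on the IgG libraries 590 and 552, with 5 added reads 562 and 532, and without the interval the same.

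Among 40 list medians, some changed sign. Under trimmed-mean and median-of-ratios scaling these were AP-1 and EGR (−0.0503 and −0.0491), heat shock (−0.0469 and −0.0457), matrix (−0.0068 and −0.0056), oxidative phosphorylation (−0.0127 and −0.0115), proteasome (−0.0724 and −0.0712) and ABC transporters (−0.0439 and −0.0427). Upper-quartile scaling gave −0.0272, −0.0238, −0.0494 and −0.0208 for AP-1 and EGR, heat shock, proteasome and ABC transporters, and totals without abundant genes −0.0010 for the proteasome. ABC transporters had −0.0449 with a filter of 20 CPM. Without a filter integrins had 0.0014, claudins −0.0536, S100 proteins 0.0618 and nuclear RNAs −0.1971. The most abundant transcript alone gave 0.2355 for Kif7, 0.0240 for invasion proteases and −0.1750 for claudins. The cause of each was not tested. Of the 296 genes under the naming rule, Kif7 was the 1 past 2-fold that changed sign in any of these settings. Another 6, none past 2-fold, changed sign in at least 1 setting, among them Axl (−0.0023) and Irf1 (−0.0250) under trimmed-mean scaling. At most 12 of their calls were lost, under trimmed-mean and median-of-ratios scaling. With trimmed-mean scaling these comprised Asah2 (0.99), Cldn7 (0.99), Cyba (0.99), Plk2 (0.99), Grhl2 (0.96), Nfe2l1 (0.96) and Nupr1 (0.96). Pvt1 (0.94), Dsp (0.93), Ccnd2 (0.90), Hscb (0.90) and Tmem208 (0.90) were the others. Depth limits the scarce genes most, whose intervals are the widest.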
